A study of Mus musculus with 6 samples.

Results

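Potassium channel genes were taken as all genes whose symbol starts with Kcn, and 98 of the 24513 genes in the count tables met this rule. They comprised 40 voltage-gated subunits, 15 inward rectifiers, 14 2-pore channels, 8 calcium- or sodium-activated channels, 16 auxiliary subunits and 5 others (4 noncoding transcripts and Kcnrg, a regulator that is not a channel). RNA was sequenced from the whole hypothalamus of 3 wild-type (WT) and 3 NS-DADm mice, all C57BL/6 and 3 to 4 months old, with 1 mouse per library and no treatment named in the labels. NS-DADm mice, as known for this line and not from the labels, carry point mutations in a domain of nuclear receptor corepressors, NCOR1 among them, that switches on the histone deacetylase HDAC3. The mutation is in every cell of the animal, so a difference in the hypothalamus cannot be assigned to neurons, glia or another organ.

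Potassium channels let potassium leave or enter cells and so set the resting potential, end each action potential and limit repetitive firing. Voltage-gated channels open on depolarisation, inward rectifiers hold cells near rest and take up potassium into glia, 2-pore channels carry background leak, and calcium- or sodium-activated channels follow spiking. In the hypothalamus, where neurons set feeding, temperature and hormone release, these channels shape pacemaking and the response to glucose, and auxiliary subunits adjust the gating and trafficking of the pores.

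Reads on genes numbered 24.2 to 27.6 M per library (M, 1e6 reads), and 110357 to 128472 of them fell on potassium channel genes. The 15 hypothalamus markers, among them Hcrt, Pmch, Avp and Oxt, were all measured, none at 0. Their summed level was 889 to 958 reads per 1e6 (CPM) in WT and 911 to 1065 CPM in NS-DADm libraries, which overlapped. In log2 fold change (NS-DADm over WT), 12 of the 15 were above 0 and 3 below, with a median of 0.17. Only Trh was called, and it was higher in NS-DADm mice. Markers of neighbouring tissue were present as well. The 14 thalamus markers, none at 0, summed to 1043 to 1536 CPM in the WT and 740 to 836 CPM in the NS-DADm libraries. All 14 were lower in the NS-DADm mean, and 5 were called, against 0.654% of all tested genes. The marker lists were chosen with earlier results of these data known, so their direction is not independent of those results. The 8 anterior pituitary markers summed to 39.4 to 110 CPM in the WT and 199 to 2019 CPM in the NS-DADm libraries, with the highest value in NS-DADm 2. The amount of thalamus and pituitary tissue taken with each hypothalamus thus cannot be told apart from genotype by these libraries. The thalamus level stands beside some of the results below, and the pituitary level was not set against any member.

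Most potassium channel genes were transcribed at this depth. A mean above 1 CPM was reached by 80 of the 98, and 86 passed the filter on low counts and were tested. The 12 that did not were Kcna7, Kcna10 and Kcnv2 (voltage-gated), Kcnj1 and Kcnj13 (inward rectifiers), Kcnk15, Kcnk16 and Kcnk18 (2-pore), Kcne1, Kcne3 and Kcnmb3 (auxiliary) and the antisense transcript Kcnmb4os1. Kcnk16 and Kcnmb3 had no read in any library, which allows a level of up to 0.109 to 0.123 CPM per library (3 counts, counting error only). Each library held reads on 92 to 94 of the 98.

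Per kilobase of exon (RPKM, the only scale on which levels of different genes are compared here), Kcnj10 had the highest level of all, at 102 ± 7.2 RPKM in WT mice (mean ± SD, n = 3, as for all levels below). Kcnj10 is the inward rectifier of astrocytes and oligodendrocytes that clears potassium from around neurons. Kcnab2, a cytoplasmic beta subunit of Shaker-type channels, was at 52.7 ± 5.0 RPKM. In all, 29 members had more than 10 RPKM, 67 more than 1 RPKM and 31 less.

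The families differed in their total levels. Voltage-gated subunits made up 42.9% of the summed RPKM of the 5 families in WT mice, inward rectifiers 22.1%, auxiliary subunits 20.9%, 2-pore channels 7.49% and calcium- or sodium-activated channels 6.55%. The leading 3 genes held 73.4% of the family's sum in the inward rectifiers (Kcnj10, Kcnj9 and Kcnj16), 78.1% in the 2-pore channels (Kcnk1, Kcnk2 and Kcnk3), 81.3% in the calcium- or sodium-activated channels (Kcnt1, Kcnn3 and Kcnma1) and 58.5% in the auxiliary subunits (Kcnab2, Kcnip4 and Kcnip1). These shares of the leading 3 genes were taken over the WT and NS-DADm libraries together. Most inward rectifier, 2-pore and activated-channel transcripts thus came from few genes.

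**Figure D1:**
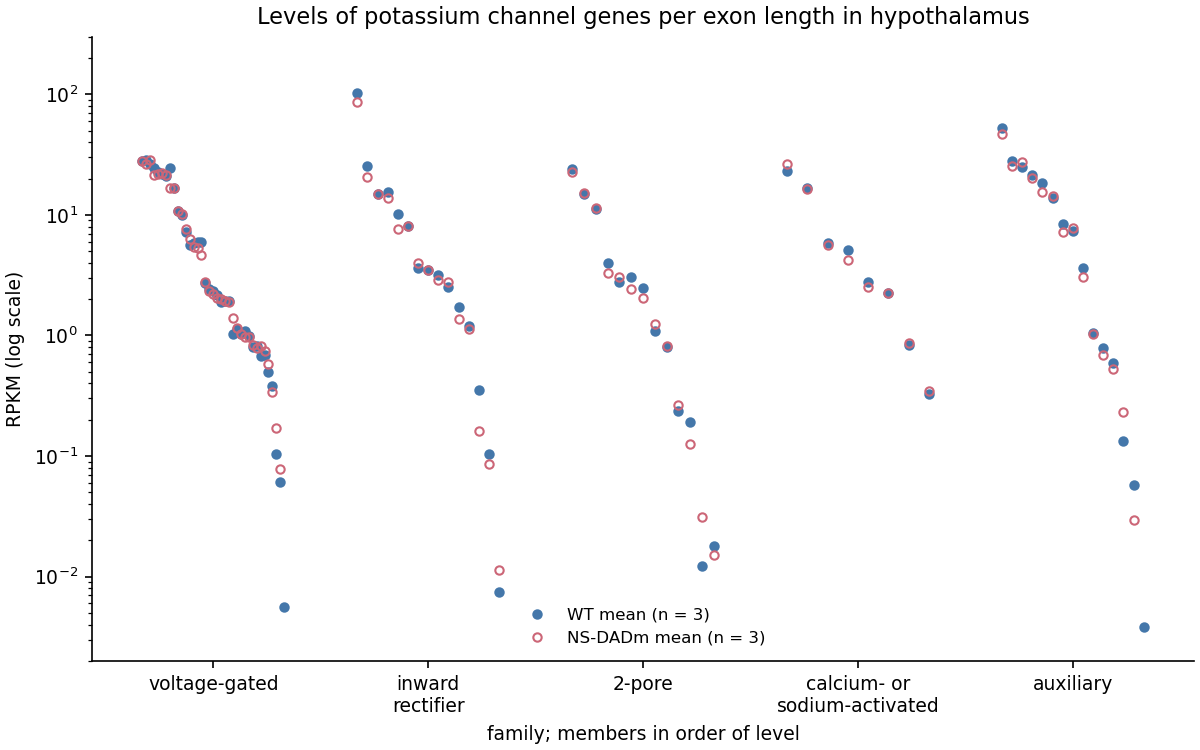
Level of the members reported here in RPKM (log axis) by family, in order of level, with filled points for the WT mean and open points for the NS-DADm mean (n = 3 each); means of 0 cannot be drawn on this axis. Levels run from 102 RPKM for Kcnj10 to below 0.1 RPKM, and WT and NS-DADm means lie close together for most members above 1 RPKM.

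Between genotypes, 1 of the 86 tested members passed the threshold (1.16%), against 0.654% of all 15894 genes tested (edgeR quasi-likelihood F test, Benjamini-Hochberg (BH) adjusted p under 0.05 over all genes). That member, Kcnc2, was lower in NS-DADm mice, and 0.573% of all genes were called lower. No member was called higher. At an unadjusted p under 0.05, 16 members were lower (18.6%) against 6.46% of all genes, and 3 were higher (3.49%) against 4.4% of all genes. The 3 WT and 3 NS-DADm values did not overlap, with NS-DADm lower, for 16 tested members (18.6%) against 8.93% of all genes, and with NS-DADm higher for 6 (6.98%) against 7.86%. The share of lower members was above the background on both counts. The lower count at an unadjusted p under 0.05 varied when a library was left out (share of all genes in brackets). It was 8 of 87 without WT 3 (5.04%), 7 of 86 without NS-DADm 2 (4.81%) and 7 of 88 without NS-DADm 3 (4.46%). It was 13 of 86 without WT 1 (7.83%), 17 of 87 without WT 2 (7.12%) and 15 of 88 without NS-DADm 1 (5.97%). With the thalamus marker level as a covariate it was 5 of 86 lower and 5 higher, against 4.71% and 4.98% of all genes in the same fit. The marker level differed between the groups without overlap, so fits with this covariate, here and below, do not separate it from genotype. The markers were chosen with earlier results of these data known, so changes under the covariate are not independent of those results. The 6 neuron markers summed to 3554 to 3745 CPM in WT and 3344 to 3360 CPM in the NS-DADm libraries, without overlap, with 5 of 6 below 0 and none called, and their part in the lower members was not tested.

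Most members differed little. The median log2 fold change (NS-DADm over WT) was -0.02 over the tested members and 0.00 over all genes, 51 members were below 0 and 35 above, and 42 were within 0.1 of 0. The 95% interval of the fold change included 0 for 67 of the 86. In a bulk tissue, fewer cells of a type and less RNA per cell cannot be told apart. By family, the median was -0.02 for voltage-gated subunits, -0.14 for inward rectifiers, 0.01 for 2-pore channels, -0.02 for calcium- or sodium-activated channels and -0.14 for auxiliary subunits. Inward rectifiers had 11 of 13 tested members below 0, and auxiliary subunits 9 of 13, against 7686 of all 15894 tested genes. With the thalamus covariate these medians were 0.02, 0.05, 0.15, 0.09 and 0.18 in the same order of families.

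**Figure D2:**
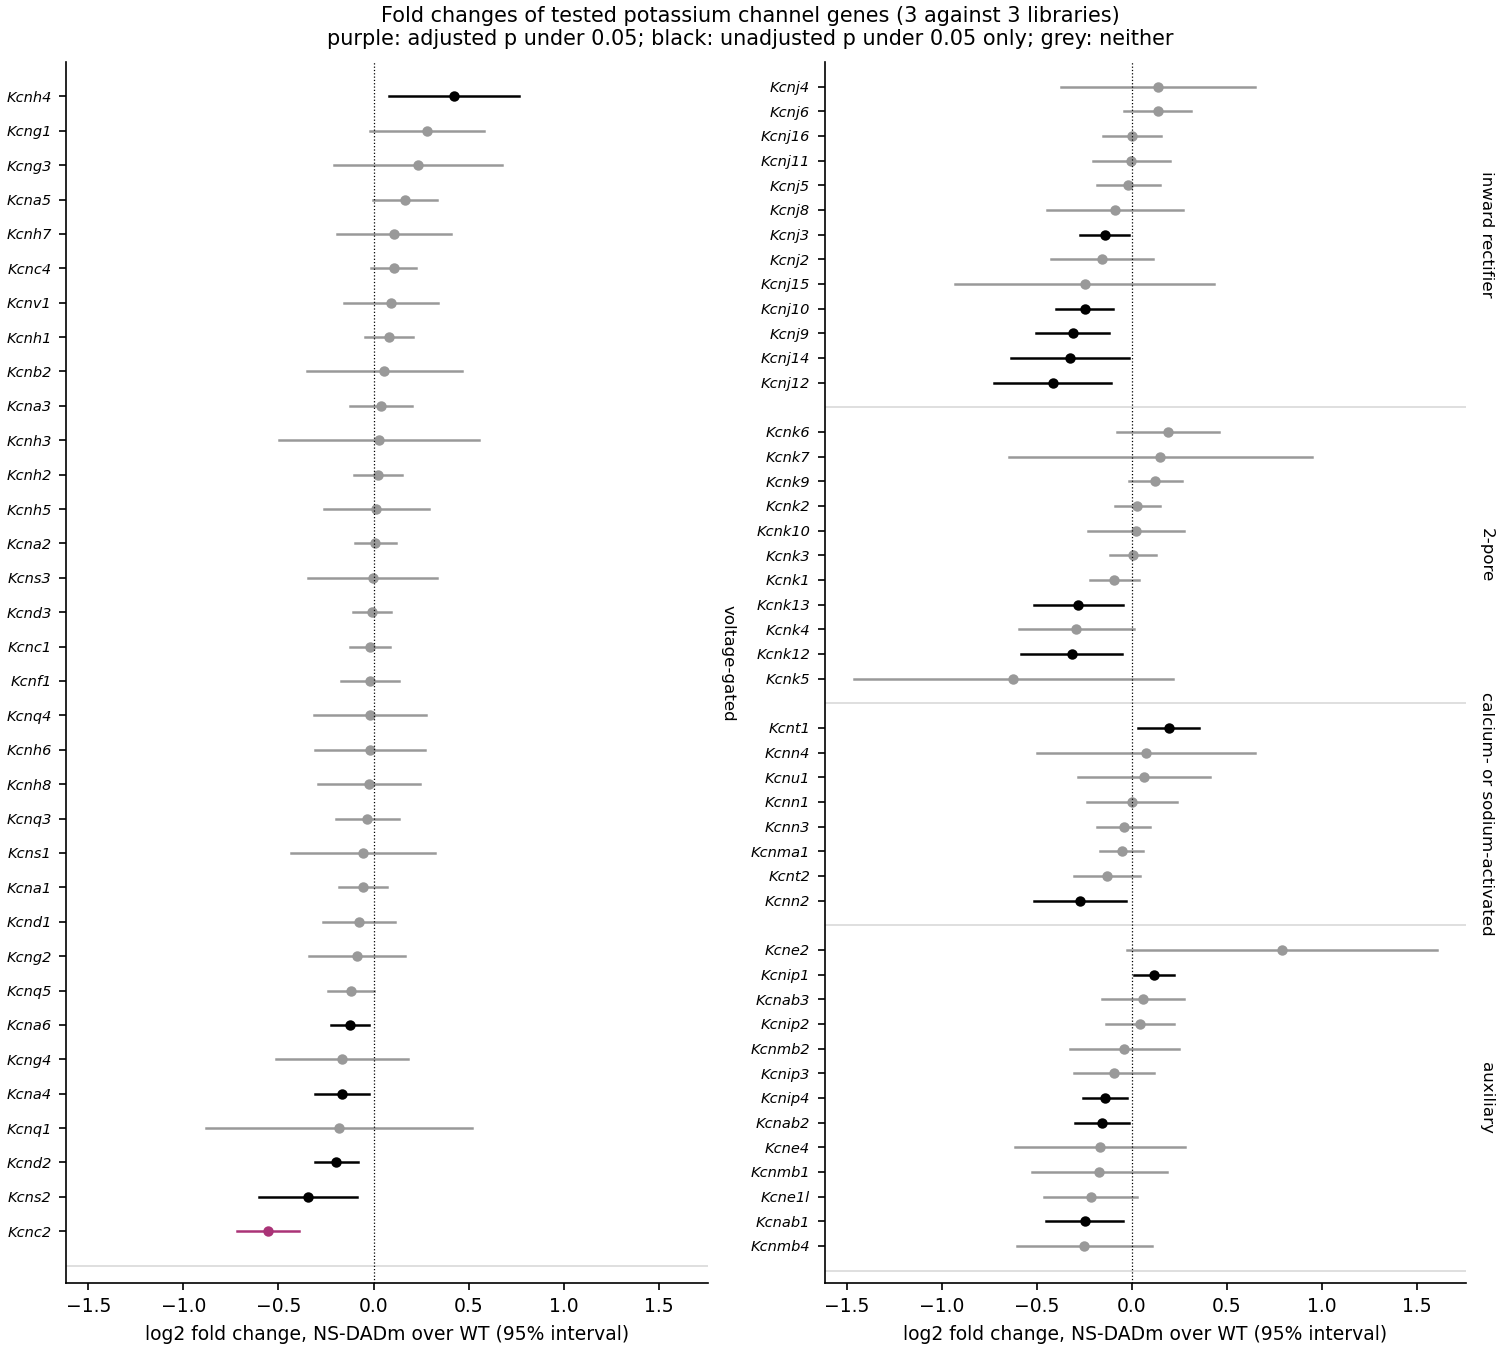
Log2 fold change of NS-DADm over WT with its 95% interval for the tested members reported here, by family, purple where the adjusted p was under 0.05, black where only the unadjusted p was, and grey otherwise. Kcnc2 is the purple point at -0.56, and 5 inward rectifiers lie below 0 in black.

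Kcnc2 encodes a Shaw-type voltage-gated pore whose fast opening and closing lets neurons, among them fast-spiking interneurons and thalamic cells, fire at high rates. Its gene lies on chromosome 10, from 112271121 to 112467024 on the plus strand (GRCm38, GENCODE M21). The level was 172, 139 and 155 CPM in the WT libraries and 110, 99.2 and 108 CPM in the NS-DADm libraries. Every NS-DADm value was below every WT value. The gap between the groups was wider than the range of the NS-DADm values but narrower than that of the WT values. Kcnc2 fell 1.47-fold in NS-DADm mice, from 24.6 ± 2.6 to 16.7 ± 0.90 RPKM, a log2 fold change of -0.56 ± 0.07 (SE; 95% interval -0.72 to -0.39; edgeR, BH adjusted p = 0.0087). The order of the 3 WT libraries by Kcnc2 was the order of their thalamus markers, with WT 1 highest and WT 2 lowest. With the thalamus marker level as a covariate, the log2 fold change of Kcnc2 was -0.09 (edgeR, BH adjusted p = 0.84). Genotype and thalamus level are not separate in that fit. The call was also lost when WT 3 (-0.56; adjusted p = 0.071), NS-DADm 2 (-0.51; adjusted p = 0.099) or NS-DADm 3 (-0.57; adjusted p = 0.082) was left out of the edgeR fit, with the size of the difference little moved.

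**Figure D3:**
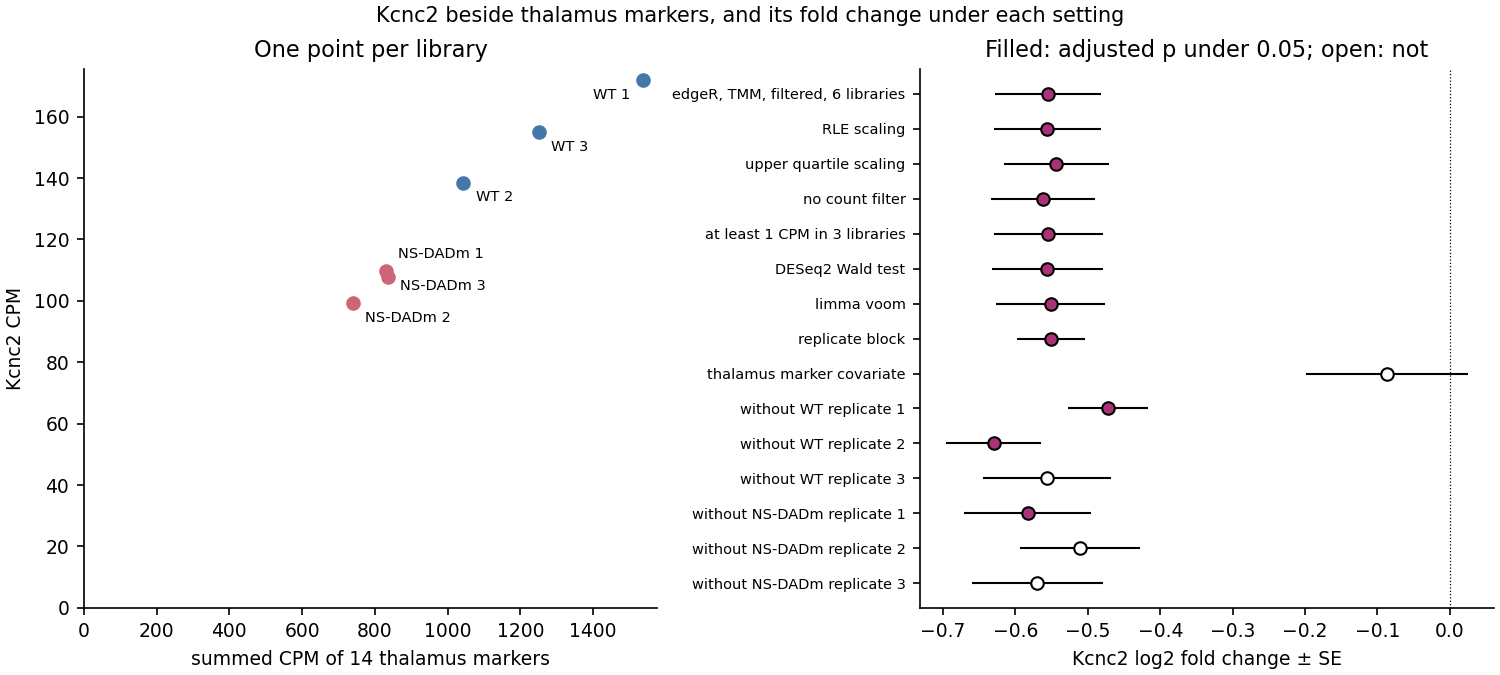
Left, Kcnc2 CPM against the summed CPM of 14 thalamus markers, 1 point per library; right, the Kcnc2 log2 fold change ± SE under each setting, filled where the adjusted p was under 0.05. The 6 libraries follow the same order on both axes except that NS-DADm 1 and 3, which lie close together, change places, and the fold change stays between -0.63 and -0.47 except with the thalamus covariate, where it is -0.09.

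Kcnc1 and Kcnc4, also Shaw-type genes, did not share this difference. Kcnc1 (chromosome 7, 46396497 to 46438704, plus strand), the paralogue that forms channels with Kcnc2, measured 277, 263 and 253 CPM in the WT and 270, 256 and 257 CPM in the NS-DADm libraries. These ranges overlapped, and the log2 fold change was -0.02, with a 95% interval of -0.13 to 0.09. Kcnc4, found in fast-firing neurons and axons, stood at 0.10 (interval -0.01 to 0.22). The interval of Kcnc2 lay wholly below those of both. In reads, the ratio of Kcnc2 to Kcnc1 was 0.620, 0.527 and 0.612 in WT and 0.406, 0.387 and 0.420 in NS-DADm libraries, which did not overlap (exact permutation test, two-sided p = 0.1, the smallest that 3 against 3 can give). This ratio, like the other ratios below, was chosen after its values were seen.

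The 250 bases before a RefSeq start site are shown for both genes (GRCm38.p6), because they are close relatives at similar levels of which 1 was called. Kcnc2 has 4 start sites in the table, and the most upstream is shown, at chr10:112269767-112270016. The Kcnc1 window is chr7:46396218-46396467, and both are on the plus strand, 5′ to 3′. Capitals mark exact matches, on either strand, to the nuclear receptor half-site AGGTCA, the GC box GGGCGG, the CCAAT box CCAAT and the TATA box TATAAA, which were the 4 motifs searched.
Kcnc2: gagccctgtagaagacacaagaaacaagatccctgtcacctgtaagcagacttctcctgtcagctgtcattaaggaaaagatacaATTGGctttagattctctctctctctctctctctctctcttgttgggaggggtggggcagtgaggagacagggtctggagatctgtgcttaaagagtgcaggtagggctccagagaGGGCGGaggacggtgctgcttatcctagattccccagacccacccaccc
Kcnc1: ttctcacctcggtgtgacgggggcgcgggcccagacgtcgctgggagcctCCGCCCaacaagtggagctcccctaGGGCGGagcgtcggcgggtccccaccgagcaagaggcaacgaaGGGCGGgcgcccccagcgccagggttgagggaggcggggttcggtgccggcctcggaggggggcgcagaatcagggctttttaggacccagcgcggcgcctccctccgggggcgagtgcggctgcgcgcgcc
The Kcnc2 window held 1 GC box and 1 CCAAT box, the latter read on the other strand as ATTGG, and the Kcnc1 window held 3 GC boxes, 1 of them on the other strand as CCGCCC. Neither held AGGTCA or TATAAA. The GC box was at this Kcnc2 start site alone. This site lies upstream of the GENCODE gene start given above, and of the other Kcnc2 sites, numbers 2 and 3 held 1 CCAAT box each and number 4 none of the motifs. Among all 32851 RefSeq windows of this length, 32.7% held GGGCGG, 33.9% CCAAT, 14.02% AGGTCA and 12.4% TATAAA, so none of these matches is rare, and a match is not evidence that a factor binds.

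Among the Shal-type pores, which carry the fast A-type current that delays firing, Kcnd2 (chromosome 6, 21215503 to 21729805, plus strand) measured 128, 123 and 130 CPM in the WT and 111, 105 and 116 CPM in the NS-DADm libraries. The groups did not overlap, but the log2 fold change of -0.20 ± 0.05 (SE) did not pass the threshold (edgeR, BH adjusted p = 0.13). Kcnd3, which forms the same current, stood at -0.01 (interval -0.11 to 0.09), and the ratio of Kcnd2 to Kcnd3 reads was 1.03, 0.938 and 1.01 in WT and 0.871, 0.829 and 0.914 in NS-DADm libraries (exact permutation test, two-sided p = 0.1). Kcnip4 and Kcnip1, calcium sensors that bind Shal-type pores, lay on opposite sides of 0. Kcnip4 measured 85.6, 90.04 and 93.9 CPM in WT and 84.2, 78.7 and 81.7 CPM in NS-DADm libraries, and Kcnip1 61.4, 63.1 and 61.7 against 67.8, 66.5 and 67.9 CPM. Neither pair of groups overlapped, and neither gene passed the threshold (log2 fold changes -0.14 and 0.12; edgeR, BH adjusted p = 0.34 and 0.40). Dpp6 and Dpp10, the other auxiliary subunits of these channels, had log2 fold changes of 0.01 and -0.06.

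The Shaker-type genes, whose channels sit largely on axons, showed no called difference. Kcna1 (-0.06), Kcna2 (0.01), Kcna3 (0.04) and Kcna5 (0.17) had intervals that included 0. Kcna6 measured 169, 169 and 166 CPM in the WT and 159, 149 and 154 CPM in the NS-DADm libraries, groups that did not overlap, and its log2 fold change of -0.12 did not pass the threshold (edgeR, BH adjusted p = 0.33). An antisense transcript, Gm26673, overlaps 2355 bases of Kcna6 exon and is not among the counted genes, so its reads cannot be told apart from those of Kcna6 if counting ignored strand. Kcna4 stood at -0.17 (edgeR, BH adjusted p = 0.37). Of their beta subunits, Kcnab2 measured 242, 203 and 209 CPM in the WT and 202, 185 and 198 CPM in the NS-DADm libraries (-0.16; edgeR, BH adjusted p = 0.40). Kcnab1 measured 66.7, 50.8 and 61.8 against 53.6, 48.8 and 48.5 CPM (-0.25; edgeR, BH adjusted p = 0.34), and the groups overlapped through WT 2. Without WT 2, Kcnab1 was called lower (-0.35; edgeR, BH adjusted p = 0.022). WT 2 had the lowest thalamus marker level of the WT libraries.

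None of the ether-a-go-go genes was called. Of the 8 Kcnh genes, Kcnh2 held 56.7% of the summed RPKM and stood at 0.02 (interval -0.10 to 0.15). Kcnh4 had the highest fold change among voltage-gated genes, at 0.42, with 4.75, 3.80 and 3.75 CPM in WT and 6.71, 5.21 and 4.60 CPM in NS-DADm libraries (edgeR, BH adjusted p = 0.34). These ranges overlapped. Kcns2, a silent subunit that modifies other voltage-gated pores, measured 38.9, 26.9 and 33.1 CPM in WT and 26.6, 26.2 and 25.1 CPM in NS-DADm libraries (-0.34; edgeR, BH adjusted p = 0.29). Its WT values followed the thalamus order too, and without WT 2 it was called lower (-0.47; edgeR, BH adjusted p = 0.010).

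Inward rectifiers had the lowest summed level relative to WT. Their sum was 195, 181 and 200 RPKM in WT and 172, 154 and 174 RPKM in NS-DADm libraries, groups that did not overlap. None of the 13 tested genes was called by edgeR, and 5 were lower at an unadjusted p under 0.05 (Kcnj10, Kcnj9, Kcnj12, Kcnj3 and Kcnj14), 38.5% against 6.46% of all genes. Voltage-gated sums were 381, 367 and 368 against 370, 350 and 358 RPKM, which overlapped. So did those of the 2-pore channels (67.8, 62.7 and 64.3 against 63.7, 61.5 and 62.1 RPKM), the activated channels (59.0, 55.9 and 55.4 against 62.1, 53.9 and 58.9 RPKM) and the auxiliary subunits (193, 171 and 180 against 177, 164 and 169 RPKM). Kcnj10 made up 52.3% of the inward rectifier sum over the WT and NS-DADm libraries together.

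Kcnj10 (chromosome 1, 172341210 to 172374085, plus strand) measured 546, 513 and 591 CPM in the WT and 475, 418 and 496 CPM in the NS-DADm libraries. The groups did not overlap, the lowest value being NS-DADm 2, and the log2 fold change of -0.25 ± 0.07 (SE; interval -0.40 to -0.10) did not pass the threshold (edgeR, BH adjusted p = 0.17). The DESeq2 Wald test called Kcnj10 (adjusted p = 0.022), and with the thalamus covariate its log2 fold change was 0.02 (edgeR, BH adjusted p = 0.98). Kcnj16, which joins Kcnj10 in heteromeric glial channels, measured 54.4, 56.3 and 65.5 CPM in WT and 57.2, 57.0 and 61.9 CPM in NS-DADm libraries, with a log2 fold change of 0.00 (interval -0.15 to 0.15). Reads of Kcnj10 per read of Kcnj16 were 10.04, 9.11 and 9.03 in WT and 8.31, 7.34 and 8.01 in NS-DADm libraries, without overlap (exact permutation test, two-sided p = 0.1). The 6 astrocyte markers summed to 2306 to 2368 CPM in the WT and 2319 to 2414 CPM in the NS-DADm libraries, which overlapped, but 4 of the 6 were below 0, with a median log2 fold change of -0.13. Aqp4 (-0.20) and Gja1 (-0.22) were lower without overlap, and none of the 6 was called. The 6 oligodendrocyte markers summed to 4740 to 5114 and 4133 to 4768 CPM, with 5 of 6 below 0, a median of -0.18 and none called. The part of either cell type in the Kcnj10 difference was not tested.

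Kcnj9, a subunit of the G protein-gated channels through which many transmitters inhibit neurons, lies 11.9 kb from Kcnj10 on chromosome 1 (172320501 to 172329318, minus strand). It measured 112, 88.4 and 96.8 CPM in WT and 84.2, 72.6 and 82.3 CPM in NS-DADm libraries, groups that did not overlap (log2 fold change -0.31 ± 0.09; edgeR, BH adjusted p = 0.18). Its assembly partners were measured at -0.14 for Kcnj3, -0.02 for Kcnj5 and 0.14 for Kcnj6, none past the threshold. Kcnj3 held 73.4, 85.7 and 81.4 CPM in WT and 72.8, 72.7 and 72.3 CPM in NS-DADm libraries. It was called lower without WT 1, the WT library nearest the NS-DADm values (-0.20; edgeR, BH adjusted p = 0.036). A noncoding transcript on the other strand, Gm26794, overlaps 1621 bases of Kcnj3 exon and is not among the counted genes. Its reads cannot be told apart from those of Kcnj3 if counting ignored strand. The ratio of Kcnj9 to Kcnj6 reads was 7.21, 5.16 and 5.86 in WT and 4.30, 4.29 and 4.69 in NS-DADm libraries (exact permutation test, two-sided p = 0.1). Without WT 2, Kcnj9 was called lower (-0.39; edgeR, BH adjusted p = 0.026), and DESeq2 called it with all libraries (adjusted p = 0.017). With the thalamus covariate its log2 fold change was 0.22 (edgeR, BH adjusted p = 0.58).

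Among the strong rectifiers that clamp the resting potential, Kcnj12 (chromosome 11, 61022564 to 61071131, plus strand) measured 33.6, 22.1 and 28.8 CPM in WT and 21.3, 19.8 and 22.2 CPM in NS-DADm libraries. WT 2 lay within the NS-DADm range, and the log2 fold change of -0.42 ± 0.14 (SE) did not pass the threshold (edgeR, BH adjusted p = 0.29). Kcnj12 was called lower without WT 2 (-0.56; edgeR, BH adjusted p = 0.0045) and by DESeq2 (adjusted p = 0.039), and stood at 0.42 with the thalamus covariate (edgeR, BH adjusted p = 0.47). Its relatives were measured at -0.16 for Kcnj2, -0.32 for Kcnj14 and 0.14 for Kcnj4, where NS-DADm 1 was highest at 12.1 CPM against 6.73 to 8.41 CPM in the other libraries. The 7 striatum markers summed to 262, 204 and 233 CPM in WT and 280, 206 and 215 CPM in NS-DADm libraries, also highest in NS-DADm 1. Their part in the Kcnj4 values was not tested. Kcnj2 is the neighbour of Kcnj16, 38.2 kb away on chromosome 11.

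The ATP-sensitive channel, which closes as glucose is burnt and serves glucose sensing in the hypothalamus, showed no called difference in any subunit. Kcnj11, its neuronal pore, measured 25.2 ± 3.6 CPM in WT mice and 25.2 ± 1.2 CPM in the NS-DADm group (log2 fold change 0.00, interval -0.21 to 0.20). Kcnj8, the pore of pericytes and smooth muscle, stood at -0.09 (interval -0.45 to 0.27), and the sulfonylurea receptors Abcc8 and Abcc9 at 0.04 and 0.02. Kcnj13, a channel of choroid plexus and other epithelia, was too low to be tested, with 13, 7 and 16 reads in WT and 6, 6 and 4 reads in NS-DADm libraries.

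Leak channels of the 2-pore family were led by Kcnk1, Kcnk2 and Kcnk3. Kcnk1 measured 57.5, 51.0 and 52.9 CPM in WT and 52.3, 49.3 and 49.9 CPM in NS-DADm libraries (-0.09, interval -0.22 to 0.04). Kcnk2, opened by stretch and lipids, stood at 0.03 (interval -0.09 to 0.15), and Kcnk3, an acid-sensitive leak channel, at 0.01 (interval -0.12 to 0.13), with overlapping groups in both. Kcnk9, the relative that pairs with Kcnk3, stood at 0.12. Kcnk13, the leak channel of microglia, measured 14.3, 10.9 and 12.2 CPM in WT and 10.3, 10.8 and 9.58 CPM in NS-DADm libraries. These groups did not overlap, and the log2 fold change of -0.28 did not pass the threshold (edgeR, BH adjusted p = 0.35). The 6 microglia markers summed to 232 to 241 CPM in the WT and 208 to 217 CPM in the NS-DADm libraries, all 6 below 0 in log2 fold change and none called. Their part in the Kcnk13 difference was not tested. Kcnk12, the closest relative of Kcnk13, stood at -0.32 and Kcnk4, a mechanosensitive channel, at -0.29, both without overlap and neither past the threshold (edgeR, BH adjusted p = 0.35 and 0.48).

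Among channels opened by calcium or sodium, Kcnt1, the sodium-activated channel that follows bursts of spikes, measured 160, 141 and 132 CPM in the WT and 177, 153 and 166 CPM in the NS-DADm libraries. WT 1 lay inside the NS-DADm range, and the log2 fold change of 0.19 ± 0.07 (SE) did not pass the threshold (edgeR, BH adjusted p = 0.35). Without WT 1, Kcnt1 was called higher (0.28; edgeR, BH adjusted p = 0.016). WT 1 was the WT library nearest the NS-DADm values for this gene, so that call adds no support. Its relative Kcnt2 stood at -0.13. The small-conductance channel Kcnn2, which supports the afterhyperpolarisation, measured 19.0, 18.0 and 19.5 CPM in WT and 18.4, 12.8 and 15.7 CPM in NS-DADm libraries, overlapping through NS-DADm 1 (-0.27; edgeR, BH adjusted p = 0.40). Kcnn3 stood at -0.04 and the large-conductance channel Kcnma1 at -0.05, with intervals that included 0. Kcnn4, a channel of blood and immune cells, was at a mean of 0.666 CPM in WT mice and of 0.698 CPM in the NS-DADm group.

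**Figure D4:**
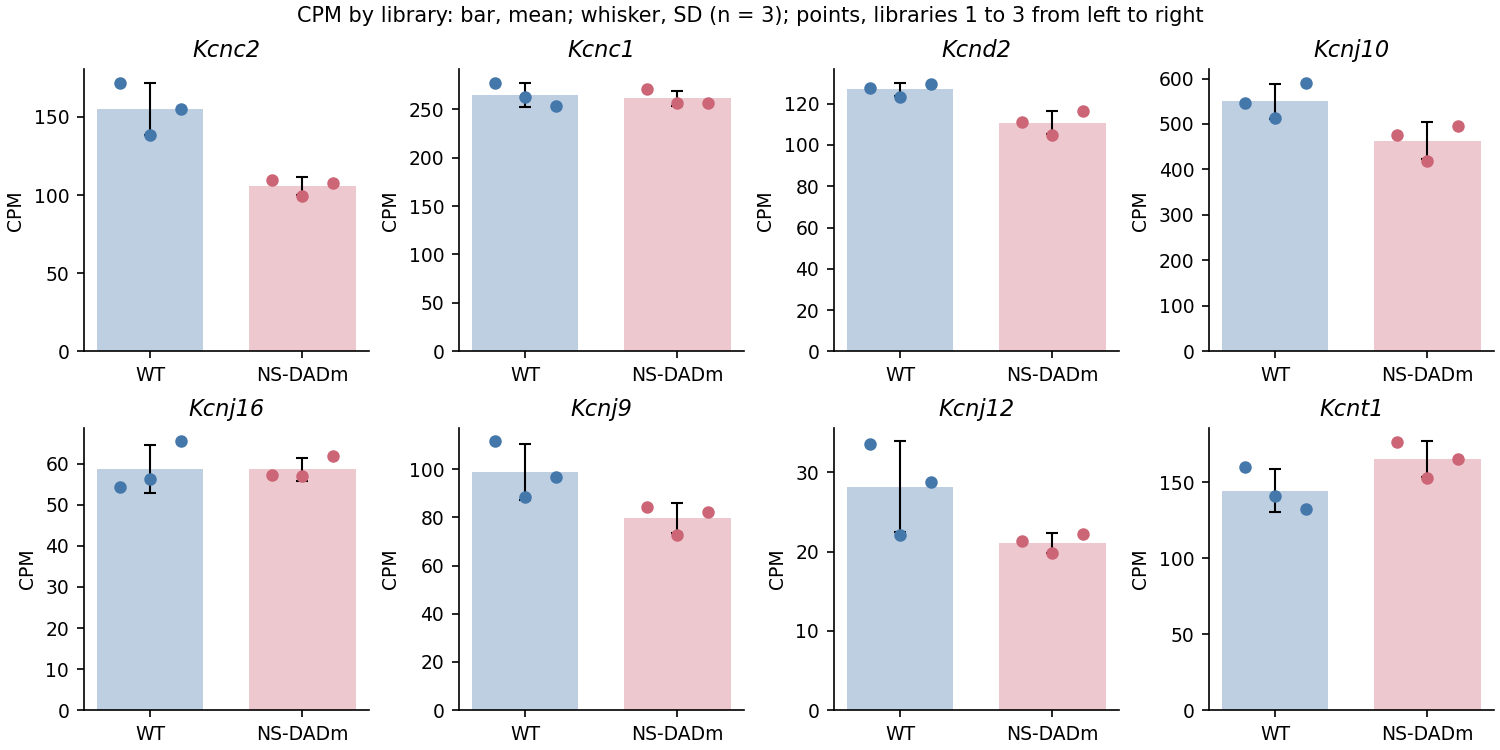
CPM in each library for 8 members, with bars for the group mean and whiskers for the SD (n = 3). NS-DADm points lie below all WT points for Kcnc2, Kcnd2, Kcnj10 and Kcnj9, and the groups overlap for Kcnc1, Kcnj16, Kcnj12 and Kcnt1.

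Kcnip3 and Kcnip2, further calcium sensors, were measured at 69.0 ± 9.8 and 34.5 ± 3.7 CPM in WT mice, with log2 fold changes of -0.09 (interval -0.30 to 0.11) and 0.04 (interval -0.14 to 0.22). The small single-pass subunit Kcne2, abundant in choroid plexus, had the highest fitted fold change of all members, at 0.79, but rested on 6, 5 and 8 reads in WT and 9, 11 and 12 reads in NS-DADm libraries (edgeR, BH adjusted p = 0.48). Choroid plexus markers summed to 36.5 to 41.1 CPM in WT and 34.3 to 45.5 CPM in NS-DADm libraries, which overlapped. Of the 5 tested, 4 were above 0, with a median log2 fold change of 0.195 and none called. Their part in the Kcne2 difference was not tested. All 3 tested Kcnmb genes, subunits of the large-conductance channel, were below 0, at -0.04 to -0.25, with intervals that included 0.

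Of 43 genes that work with potassium channels or move potassium but carry other symbols, 42 were tested and none was called by edgeR. At an unadjusted p under 0.05, 7 were lower and 2 higher (16.7% and 4.76%), against 6.46% and 4.4% of all genes. DESeq2 called 2 of them, and 282 of all genes. The list held channel partners, sodium pumps, potassium-chloride cotransporters and HCN pacemaker channels, and its median log2 fold change was -0.01. Rgs7bp, which anchors the regulators that switch off G protein-gated channels, measured 133 ± 13 CPM in WT mice and 99.2 ± 11 CPM in the NS-DADm group (-0.43; edgeR, BH adjusted p = 0.080). Fxyd1, a regulator of the sodium pump, measured 18.5 ± 0.62 and 24.3 ± 2.6 CPM (0.39; edgeR, BH adjusted p = 0.054), and was called without the count filter and by DESeq2. Lingo1, a partner of the large-conductance channel, stood at -0.19 and Fxyd6 at 0.14, neither past the threshold.

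The coefficient of variation of a tested member over the 3 WT libraries was 9.97% at the median, from 0.724% to 59.6%. Among the 16 members lower at an unadjusted p under 0.05, 8 ranked the WT libraries in the order of the thalamus markers (WT 1, WT 3, WT 2), as did 19 of the other 70 tested members. Kcnd2, Kcnj10, Kcnj3, Kcnj14, Kcna4, Kcna6, Kcnip4 and Kcnn2 were lower without following that order. The share of all tested genes with that order was not counted. The part of thalamus tissue in the differences of the 16 lower members was not tested beyond the covariate fit.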

How the data were processed

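Total RNA from the hypothalamus of 3 WT and 3 NS-DADm mice was sequenced, 1 mouse per library. The authors deposited raw read counts per gene symbol, aligned with TopHat2 2.0.9 to mm10 and counted with HTSeq, per the submitters' processing notes. No version of HTSeq, annotation or strand setting is given in the sources used here; overlapping and antisense genes cannot be told apart. Unassigned rows were left out: reads outside genes were 13.3 to 14.8%, ambiguous reads 1.00 to 1.06% and multiply aligned reads 14.3 to 16.5%. Kcna6, Kcnj13, Kcnk2, Kcnk3, Kcnk4, Kcnma1 and Kcnn2 share an identical stretch with another annotated transcript (BLAST 2.17.0), for Kcna6, Kcnk2, Kcnma1 and Kcnn2 by exon overlap on the opposite strand, so their counts are uncertain there.

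Counts were filtered with filterByExpr (15894 genes left) and scaled with TMM factors of 0.992 to 1.01. The test was that of edgeR 4.0.16 in R 4.3.3 (robust quasi-likelihood F test, no covariate, BH adjustment over all tested genes, calls at 0.05). The biological coefficient of variation was 6.45%. SEs were the fold change divided by the root of F. CPM used TMM-scaled library sizes, and RPKM divided CPM by exon length in GENCODE M21. Pairs of libraries within a group differed by 3.41 to 10.4 times the counting noise (chi-square per degree of freedom), so none was merged. The fit was also run on counts simulated from its own means and dispersions, with known changes. The share recovered is not given here, so that run does not show how well small differences are found. Alternatives were other scaling, other filters, DESeq2 1.42.0, limma voom 3.58.1, a replicate block, a thalamus marker covariate (mean log2 CPM of the 14 markers) and leaving out each library.

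The members, families, partner and marker lists were chosen with earlier results of these data known. Named genes were the called member, the 3 smallest p and 3 highest levels in each family, 8 members found mainly outside neurons and the 4 partners with the smallest p. Some members that the rule names are not reported here. Other members were named after their values were seen, to complete a subfamily.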

Additional observations from a re-analysis of the deposited data

How the results depend on the processing

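Kcnc2 was lower in NS-DADm mice under every setting run and passed the threshold in all but the thalamus covariate fit and 3 of the 6 fits that left out a library. The count of potassium channel genes called was 1 with RLE or upper quartile scaling, with either other count filter and with limma voom. It was 4 with DESeq2, 0 with the thalamus covariate and 0 to 5 when 1 library was left out. Over all genes, the count of 104 became 203 without the count filter, 282 with DESeq2, 8 with the thalamus covariate and 5 to 312 when 1 library was left out. The highest of these came without WT 1 and without WT 2 (262), the lowest without WT 3 (10), NS-DADm 2 and NS-DADm 3 (8). For the partner genes it was 1 without the filter, 2 with DESeq2 and 0 to 1 with a library left out.

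The replicate numbers carried by both groups do not come with a shared litter or day in the labels. Deviations from the group means correlated at 0.12, 0.08 and -0.04 between libraries of the same number. The first and second pairs of libraries correlated best with each other, and the third pair did not. Whether libraries of the same number share an origin is not settled by these values. With the replicate block, 409 genes were called in all, 6 potassium channel genes (Kcnc2, Kcnd2, Kcnj10, Kcnj12, Kcnj9 and Kcnt1) and 2 partners. Kcnj16 stood at 0.0022 with the block.

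With the thalamus covariate, the family medians were 0.016 (voltage-gated), 0.18 (auxiliary), 0.051 (inward rectifier), 0.15 (2-pore) and 0.086 (calcium- or sodium-activated). Of the named genes, 18 changed sign in that fit, none past the threshold: Kcns2 stood at 0.32, Kcnc1 at 0.096, Kcnj10 at 0.020, Kcnj9 at 0.22, Kcnj12 at 0.42, Kcnj16 at 0.011, Kcnk13 at 0.14, Kcnk12 at 0.089, Kcnk4 at 0.23, Kcnk1 at 0.15, Kcnk2 at -0.087, Kcnn2 at 0.10, Kcnn3 at 0.071, Kcnab1 at 0.30, Kcnab2 at 0.21, Kcnj8 at 0.44, Kcna3 at -0.19 and Rgs7bp at 0.084. The covariate differs between the groups without overlap, so genotype and thalamus level are not separate in this fit. The cause was not tested.

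Kcnj16, near 0 throughout, was at 0.011 with upper quartile scaling, 0.00084 with the 1 CPM filter and 0.0038 with limma voom, and Kcnk3 was at -0.0012 without the filter. With 1 library left out, the family medians ranged from -0.033 to 0.030 (voltage-gated), -0.20 to -0.11 (inward rectifier) and -0.074 to 0.0052 (2-pore). Of the named genes, 7 then changed sign, none past the threshold: Kcnc1 ranged from -0.049 to 0.020, Kcnj16 from -0.049 to 0.085, Kcnk3 from -0.027 to 0.026, Kcnn3 from -0.088 to 0.024, Kcnj8 from -0.19 to 0.085, Kcnn4 from -0.049 to 0.16 and Kcna3 from -0.014 to 0.077. At 24.2 to 27.6 M reads on genes, members under about 1 CPM, such as Kcne2 and Kcnk5, had intervals too wide to place their direction.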

Other observations

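The noncoding transcripts among the Kcn symbols showed no called difference. Kcnq1ot1, the imprinted RNA transcribed antisense to Kcnq1, measured 78.9, 105 and 112 CPM in WT and 110, 91.4 and 101 CPM in NS-DADm libraries, with a log2 fold change of 0.03 (95% interval -0.30 to 0.36). Its host Kcnq1 was at 1.15 ± 0.43 CPM in WT mice and 1.02 ± 0.36 CPM in the NS-DADm group (SD, n = 3). Kcnmb4os2 and Kcnd3os, antisense to Kcnmb4 and Kcnd3, were at 1.52 and 0.599 CPM in WT mice. Kcnrg stood at 0.37 without overlap between the groups, and did not pass the threshold (edgeR, BH adjusted p = 0.60).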
